A study of Homo sapiens with 12 samples.

Results

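Matrix metalloproteinases (MMPs) and their tissue inhibitors (TIMPs) were followed in HK-2 cells, an immortalized line of the human kidney proximal tubule, under 3 drugs that injure the tubule. The genes were 10 of the 58735 in the deposited table of read counts, taken by name: the collagenase MMP1, the gelatinases MMP2 and MMP9, the stromelysins MMP3 and MMP10, the matrilysin MMP7, the membrane-anchored MMP14, and the inhibitors TIMP1, TIMP2 and TIMP3. RNA of 12 samples was sequenced, 3 in each of 4 groups. The control group received water, and the others were treated for 48 h with the X-ray contrast agent iohexol (75 mg I/mL), the platinum antitumor drug cisplatin (5 μM) or the glycopeptide antibiotic vancomycin (4 mM). All samples came from this single line, and the labels do not say whether the 3 samples of a group were separate cultures, so the p-values measure the spread between samples, which may be technical. Total counts were between 14057282 and 18177109 per sample. Levels are given as CPM, the reads of a gene per 1000000 reads, scaled with the TMM factors of edgeR. Members are ranked against each other as TPM, which also divides by gene length and sums to the same number in each sample. Sums of cell-type markers are in CPM and are not corrected for gene length.

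MMPs are zinc-dependent endopeptidases that cut collagens, laminins, fibronectin and other proteins of the extracellular matrix. They are made as inactive proenzymes. Secreted members can be opened by plasmin or by another MMP, and MMP14 at the cell surface opens proMMP2 with TIMP2 as the adaptor. TIMPs bind the active enzymes in the catalytic cleft and block them. In the kidney the family is known from the turnover of the tubular basement membrane, and MMP7 is studied as a urinary marker of tubular injury and fibrosis. RNA levels do not show how much of each enzyme was active.

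A feature that the 7 enzymes share is the zinc-binding site of the catalytic domain. Its coding sequence is shown for each enzyme, 33 bases on the coding strand, with the codons of the zinc-binding histidines and the catalytic glutamate in capitals (transcripts of GENCODE release 29, build GRCh38).
MMP1: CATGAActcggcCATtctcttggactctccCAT
MMP2: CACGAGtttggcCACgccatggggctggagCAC
MMP3: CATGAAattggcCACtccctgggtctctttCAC
MMP7: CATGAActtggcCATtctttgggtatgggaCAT
MMP9: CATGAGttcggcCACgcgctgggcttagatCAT
MMP10: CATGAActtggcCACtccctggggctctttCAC
MMP14: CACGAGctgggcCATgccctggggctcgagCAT

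The sites lay in exon 5 of MMP1, MMP3, MMP7, MMP10 and MMP14 and in exon 8 of the gelatinases MMP2 and MMP9. The site of MMP1 was at chr11:102795549-102795581 on the minus strand, that of MMP7 at chr11:102523343-102523375 on the minus strand, and that of MMP14 at chr14:22843283-22843315 on the plus strand. The stromelysins MMP3 and MMP10 shared 31 of the 33 bases, the most of the 21 pairs, and MMP1 and MMP2 shared 18, the fewest. Over the whole transcripts, 6.11% of the 31-base stretches of MMP3 and 7.12% of those of MMP10 were found in the other gene. Reads of these 2 genes can therefore be assigned to either in small part, and for MMP1, MMP7, MMP9 and MMP14 no such stretch was found in another gene's transcripts. TIMP2 shared 3.71% of its stretches, mainly with CEP295NL, which had at most 167 counts in a sample. MMP2 shared 2.97%, mainly with AC007336.3, which had 0 counts. The stretches were compared on the transcript strand, so genes on the opposite strand that overlap an exon, as at MMP9, are not covered.

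Untreated HK-2 cells held RNA of TIMP1, TIMP2 and 3 of the enzymes at high or moderate levels. Per gene length, TIMP1 was highest at 372 TPM, followed by TIMP2 at 234 TPM, MMP14 at 195 TPM, MMP7 at 70.4 TPM and MMP1 at 60.5 TPM (means, n = 3). The other listed enzymes were scarce. MMP9 had 2.26 TPM and MMP2 0.812 TPM, MMP10 had 5, 2 and 4 counts in the 3 samples, and MMP3 had 1 count in 1 sample. TIMP3, the inhibitor that is bound to the matrix, had 0 counts in all 12 samples, which allows up to 3 counts, or 0.177 to 0.218 CPM, in a library and covers counting error only. All 10 genes together took 0.0770% to 0.0832% of the reads of a control sample. This share was 0.0825% to 0.0896% in iohexol samples, 0.0642% to 0.0655% in cisplatin samples and 0.205% to 0.237% in vancomycin samples.

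**Figure D1:**
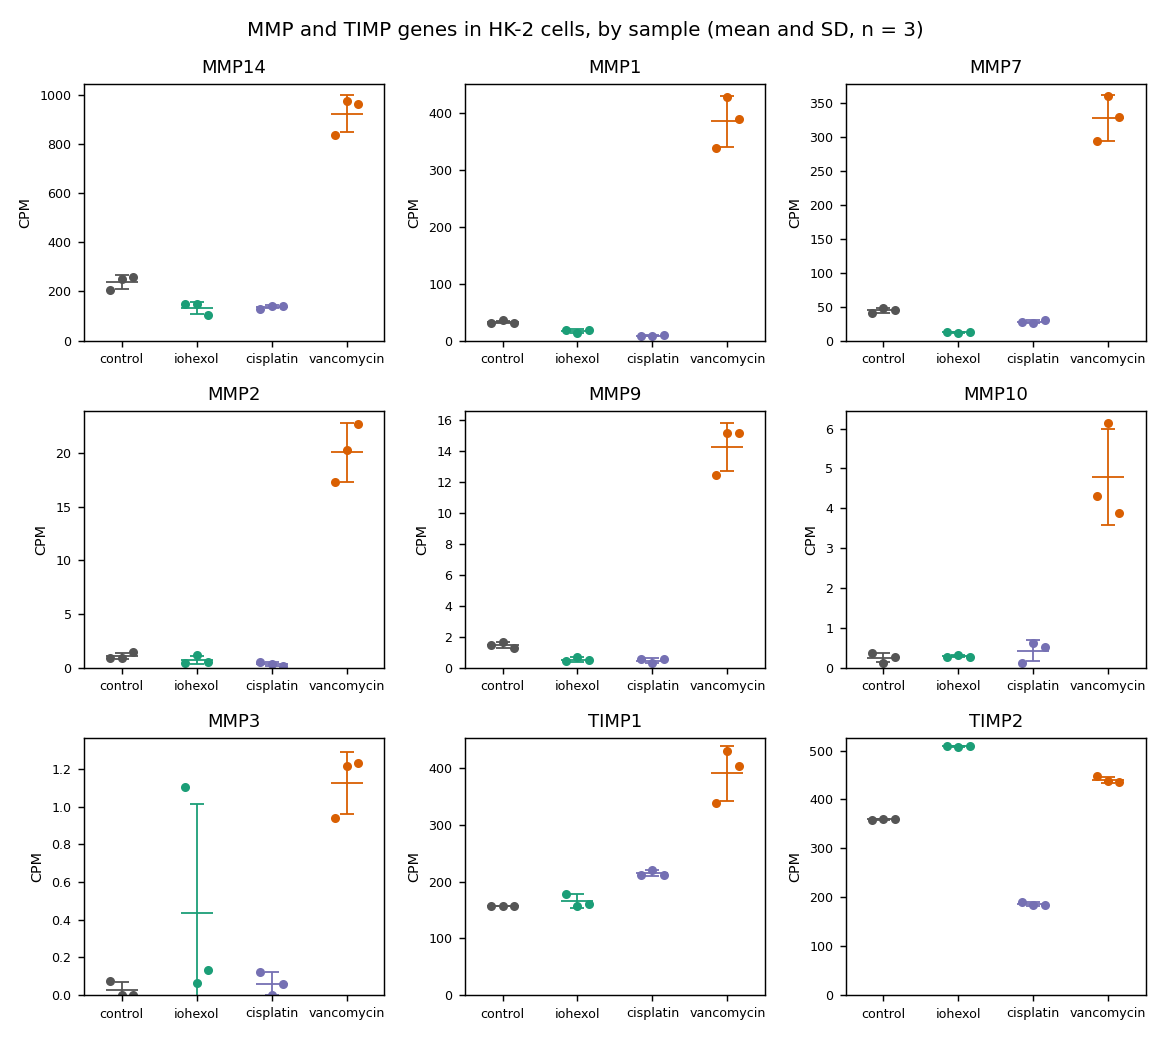
Level of each MMP and TIMP gene in CPM (vertical axes starting at 0) in the 12 samples, with 1 point per sample and the mean and SD of the 3 samples of a group as a line with bars; TIMP3 had 0 counts and is not drawn. The 3 vancomycin points lie above all others for MMP14, MMP1, MMP7, MMP2, MMP9, MMP10 and TIMP1, TIMP2 is highest with iohexol, and for MMP3 the bar of iohexol, clipped at 0, comes from 1 sample at 1.11 CPM.

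With vancomycin, all 7 enzymes and the inhibitors TIMP1 and TIMP2 were up-regulated against the control, the enzymes by more than the inhibitors. The difference was tested with edgeR's quasi-likelihood test, with p-values adjusted by the Benjamini-Hochberg method over all genes tested, and a gene was called at an adjusted p under 0.05. Of the 9 genes tested, 9 were called higher and 0 lower, where 57.9% of the 15819 genes tested were called in either direction and 29.0% were called higher. DEGs, which also needed a log2 fold change above 1 or below -1, were 8 of them, all higher, against 10.8% of all genes up-regulated to that extent. In the 9 genes no vancomycin sample overlapped a control sample, which was so in the higher direction for 33.9% of all genes. MMP3 and MMP10 entered this test only through their counts in the vancomycin group, so their calls were tied to the filter. The counts above include both, as does the median log2 fold change of the 9 genes, which was 3.25, beside -0.01 for all genes tested.

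MMP1, which opens the triple helix of fibrillar collagens, had 31.2, 35.4 and 30.98 CPM in the control samples and 338, 427 and 389 CPM with vancomycin. The lowest vancomycin sample was far above the highest control, and the log2 fold change was 3.52 (SE 0.11, adjusted p = 4.33e-18), an 11.5-fold rise that ranked 8 among all genes by p. MMP7, a small MMP without the hemopexin domain, had 40.8, 48.6 and 44.6 CPM in the control and 293, 360 and 328 CPM with vancomycin. It rose by 2.83 on the log2 scale (SE 0.10, adjusted p = 9.27e-17), or 7.10-fold. MMP14 had 206, 249 and 258 CPM in the control and 837, 975 and 964 CPM with vancomycin, and its log2 fold change of 1.92 (SE 0.10, adjusted p = 4.63e-14) was the smallest of the 7 enzymes.

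The gelatinases, which cut denatured collagen and the type IV collagen of basement membranes, were low in the control and rose to moderate levels. MMP2 had 0.943, 0.878 and 1.45 CPM in the control and 17.3, 20.3 and 22.7 CPM with vancomycin (log2 fold change 4.15, SE 0.21, adjusted p = 4.63e-14). MMP9 had 1.45, 1.63 and 1.25 CPM in the control and 12.5, 15.1 and 15.2 CPM with vancomycin (log2 fold change 3.25, SE 0.20, adjusted p = 1.95e-12). The groups stood wide apart for both genes. MMP9 shares exon positions on chromosome 20 with the antisense gene SLC12A5-AS1, which had at most 28 counts in a sample, and no strand setting is given in the sources used here.

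The stromelysins, which cut a broad range of matrix proteins and can activate other proMMPs, came up from near the floor. Both genes passed the filter only through the vancomycin group, so their fitted changes are given as a description. MMP10 had 69, 91 and 63 counts with vancomycin against 5, 2 and 4 in the control (log2 fold change 4.19, SE 0.39). MMP3 had 15, 18 and 20 counts against 1, 0 and 0, a fitted log2 fold change of 5.18 (SE 0.82). With a single control read the size of the MMP3 change is loosely set, and the ratio of the summed counts per depth was 50.6 with a 95% counting interval from 8.70 to 2037.

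Of the inhibitors, TIMP1 had 156, 156 and 157 CPM in the control and 338, 431 and 404 CPM with vancomycin, a 2.43-fold rise (log2 fold change 1.28, SE 0.09, adjusted p = 3.04e-11). TIMP2, which also takes part in the activation of proMMP2, had 358, 360 and 359 CPM in the control and 448, 438 and 435 CPM with vancomycin. This was a small difference of 0.25 (SE 0.08, adjusted p = 0.0103) that was lost without TMM factors (adjusted p = 0.0615) and without control replicate 2 (adjusted p = 0.0572). Per length and without TMM factors TIMP2 had 233, 230 and 238 TPM in the control and 258, 234 and 245 TPM with vancomycin, where the samples overlapped. TIMP3 stayed at 0 counts.

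**Figure D2:**
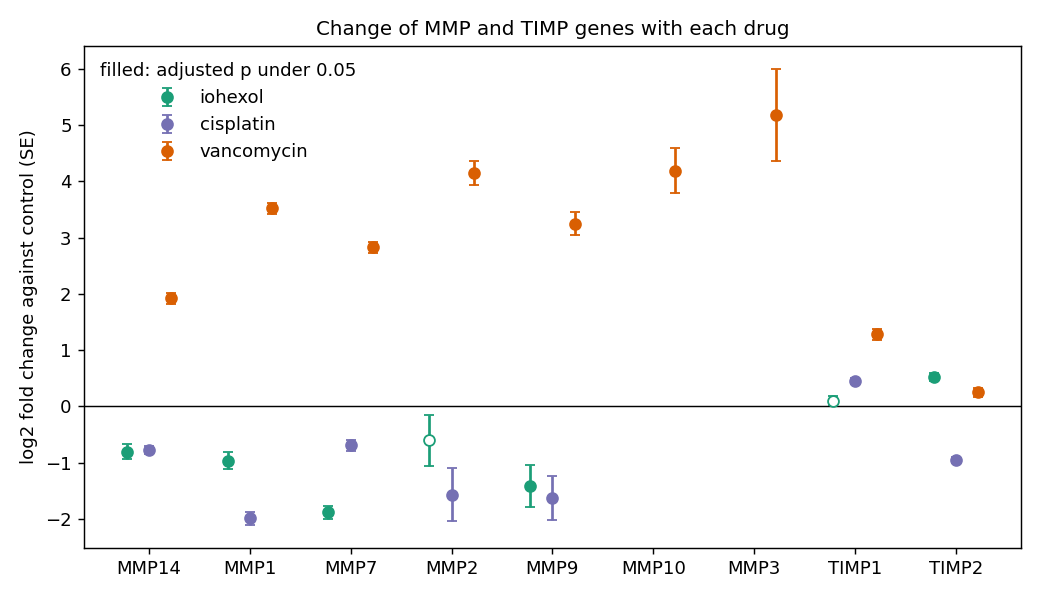
Log2 fold change of each gene against the control (vertical axis, points) with its standard error (bars) in separate fits of 3 against 3 samples for iohexol, cisplatin and vancomycin; filled points had an adjusted p under 0.05 and genes not tested have no point. The enzymes tested lie below 0 with iohexol and cisplatin and between 1.92 and 5.18 with vancomycin, while TIMP1 and TIMP2 lie between -0.95 and 1.28.

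With cisplatin, the abundant enzymes MMP1, MMP7 and MMP14 fell and the 2 detected inhibitors moved in opposite directions. Of the 7 genes tested, 6 were called lower and 1 higher, where 59.8% of the 15876 genes tested were called, 30.6% lower and 29.2% higher. MMP2 and MMP9 entered this test only through their counts in the control group, where they were higher, so their calls were tied to the filter. DEGs were MMP1 and these 2 genes, all lower, beside 8.72% of all genes, and in the 6 lower genes the cisplatin samples did not overlap the control, as in 32.5% of all genes. The median log2 fold change of the 7 genes, with MMP2 and MMP9 included, was -0.95, beside 0.01 for all genes tested.

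MMP1 showed the largest fall with cisplatin, to 7.69, 7.45 and 9.45 CPM, or 3.97-fold lower than the control (log2 fold change -1.99, SE 0.12, adjusted p = 1.69e-10). MMP7 fell less, to 27.4, 25.7 and 29.9 CPM (log2 fold change -0.69, SE 0.09, adjusted p = 4.88e-06), and MMP14 to 130, 143 and 143 CPM (log2 fold change -0.78, SE 0.08, adjusted p = 1.16e-07). In these 3 genes each cisplatin sample was below each control sample. The gelatinases were at few counts. They passed the filter only through the control group, so their fitted changes are given as a description. MMP9 had 9, 5 and 9 counts against 20, 26 and 19 in the control (log2 fold change -1.63, SE 0.39). MMP2 had 9, 6 and 3 counts against 13, 14 and 22 (log2 fold change -1.57, SE 0.47), and its call was also lost without cisplatin replicate 3 (adjusted p = 0.0533). MMP10 had 2, 10 and 9 counts and MMP3 2, 0 and 1, both too few to be tested against the control.

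TIMP1 rose with cisplatin to 212, 221 and 211 CPM (log2 fold change 0.46, SE 0.06, adjusted p = 2.62e-06). TIMP2 fell to 191, 185 and 184 CPM (log2 fold change -0.95, SE 0.06, adjusted p = 1.32e-10). Neither gene's samples overlapped those of the control, and the spread within each group was small.

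With iohexol, the abundant enzymes fell as well, and TIMP2 rose. Of the 7 genes tested, 4 were called lower and 1 higher, where 21.0% of the 15657 genes tested were called, 9.77% lower and 11.2% higher. Without control replicate 2 the number of genes called was 1849 in place of 3283, and without iohexol replicate 2 it was 2111, so the share over all genes with iohexol depended on these libraries. MMP2 and MMP9 passed the filter here, too, only through the control group. DEGs were MMP7 and MMP9, both lower, beside 1.25% of all genes. The samples of the 4 lower genes did not overlap the control, as in 19.4% of all genes. The median log2 fold change of the 7 genes, with MMP2 and MMP9 included, was -0.80, beside 0.01 for all genes tested.

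MMP7 showed the largest fall with iohexol, to 12.0, 11.8 and 12.0 CPM, or 3.69-fold lower (log2 fold change -1.88, SE 0.12, adjusted p = 6.81e-07). MMP1 fell to 18.5, 12.3 and 18.5 CPM (log2 fold change -0.97, SE 0.15, adjusted p = 0.000946) and MMP14 to 150, 148 and 106 CPM (log2 fold change -0.80, SE 0.14, adjusted p = 0.00145). The iohexol samples of MMP7 were nearly equal, while 1 sample stood below the other two in MMP1 and another in MMP14. MMP9, which passed the filter only through the control group, had 6, 11 and 7 counts (log2 fold change -1.41, SE 0.38). Its call was also lost without control replicate 1 (adjusted p = 0.0506), control replicate 2 (0.0938) or iohexol replicate 1 (0.078). MMP2 had 6, 18 and 8 counts and did not pass the test, with a log2 fold change of -0.60 and a 95% interval from -1.49 to 0.28 (adjusted p = 0.382).

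TIMP2 had 509, 508 and 509 CPM with iohexol, the highest level of this gene in the 4 groups (log2 fold change 0.52, SE 0.07, adjusted p = 0.000433). TIMP1 had 179, 157 and 161 CPM, with a log2 fold change of 0.10 and a 95% interval from -0.07 to 0.27 that did not pass the test (adjusted p = 0.447). MMP10 had 4, 5 and 4 counts. MMP3 had 16, 1 and 2 counts, so that 1 of the 3 libraries was as high as the vancomycin samples and the others were near the floor. MMP3 was too low for the test in this comparison, and in a fit of all 12 samples its log2 fold change of 3.84 (SE 1.26, adjusted p = 0.0298) came from a group in which that library held 16 of the counts.

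The 3 drug groups were set against the same control samples, so their changes are not independent, and the drugs were compared directly in a fit of all 12 samples. MMP14 did not differ between iohexol and cisplatin beyond the error, with a log2 difference of -0.05 and a 95% interval from -0.27 to 0.18 (adjusted p = 0.76). Of 9 genes tested 3 were called higher with iohexol and 2 lower, a share near that of all genes, of which 54.0% of 17073 were called, 27.9% higher and 26.0% lower. MMP1 was higher with iohexol by 1.00 (SE 0.15, adjusted p = 1.34e-05) and TIMP2 by 1.45 (SE 0.07, adjusted p = 5.73e-13), while MMP7 was lower by 1.21 (log2 difference -1.21, SE 0.11, adjusted p = 9.34e-09) and TIMP1 by 0.37 (log2 difference -0.37, SE 0.09, adjusted p = 0.000975). Of the 4 groups, MMP1 was thus lowest with cisplatin and MMP7 lowest with iohexol. MMP3 was called higher with iohexol by 2.66 (SE 1.03, adjusted p = 0.0354), although the samples overlapped, and without iohexol replicate 1 the difference was 0.64 (adjusted p = 0.688). For MMP2, MMP9 and MMP10 the log2 differences were 0.95 (adjusted p = 0.0942), 0.20 (adjusted p = 0.705) and -0.54 (adjusted p = 0.448), and did not pass the test. The MMP2 difference turned on single samples: it was 1.21 without iohexol replicate 1 (adjusted p = 0.0415), and it ranged from 0.39 to 1.35 when 1 sample was left out.

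Against vancomycin, cisplatin was lower in 9 of the 9 genes tested, where 64.7% of all genes were called, 30.0% higher and 34.7% lower. MMP3 and MMP10 were among the 9 only through their vancomycin counts, so their calls were tied to the filter. The call of MMP10 in the comparison of iohexol with vancomycin was tied in the same way. The log2 differences were -5.76 (SE 0.30) for MMP2, -5.55 (SE 0.15) for MMP1 and -4.92 (SE 0.25) for MMP9, and -1.24 (SE 0.07) and -0.86 (SE 0.09) for TIMP2 and TIMP1. Iohexol was lower than vancomycin in 7 of the 9 genes and higher in 1, where 56.6% of all genes were called, 29.0% lower and 27.6% higher. MMP7 had here a log2 difference of -4.77 (SE 0.11, adjusted p = 3.16e-17), which ranked 2 among all 17073 genes by p. The gene that was higher with iohexol was TIMP2, by 0.21 (SE 0.06, adjusted p = 0.00895), a call lost when only these 6 samples were fitted (adjusted p = 0.0541) or all genes were kept (0.0648). MMP3, which entered this comparison, too, only through its vancomycin counts, did not pass the test against iohexol (log2 difference -1.39, adjusted p = 0.0762). It passed without iohexol replicate 1 (-3.42, adjusted p = 0.00123) and in limma-voom (adjusted p = 0.00763).

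The balance of the 10 listed genes as RNA is described by the summed levels per length. MMPs outside the list are not in the sums, so the ratios and shares hold for the listed genes only. MMP24 had 84.0, 93.3, 77.0 and 52.4 TPM in control, iohexol, cisplatin and vancomycin. MMP15 had 40.9, 31.8, 14.5 and 31.6 TPM in the same groups, and MMP16 6.14, 18.1, 2.35 and 9.04 TPM. The 7 MMP genes together had 330 ± 30.7 TPM in the control (SD, n = 3), 173 ± 19.7 TPM with iohexol, 190 ± 8.77 TPM with cisplatin and 1744 ± 115 TPM with vancomycin. The 3 TIMP genes together had 606 ± 11.5, 770 ± 20.3, 688 ± 13.1 and 1041 ± 61.7 TPM in the same order. The listed enzymes thus varied more between groups than the listed inhibitors did. The MMP sum divided by the TIMP sum was 0.488, 0.578 and 0.566 in the control samples, 0.238, 0.235 and 0.199 with iohexol, 0.264, 0.268 and 0.297 with cisplatin and 1.66, 1.69 and 1.67 with vancomycin. With all 10 genes summed, the vancomycin samples were the only ones of the 12 with more MMP than TIMP RNA per length, and all iohexol and cisplatin samples were below all controls. The order of control and cisplatin rested on TIMP1: with it left out, the ratio was 1.41 in the control, 0.491 with iohexol, 1.44 with cisplatin and 7.13 with vancomycin. These sums are given as a description, with no test.

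**Figure D3:**
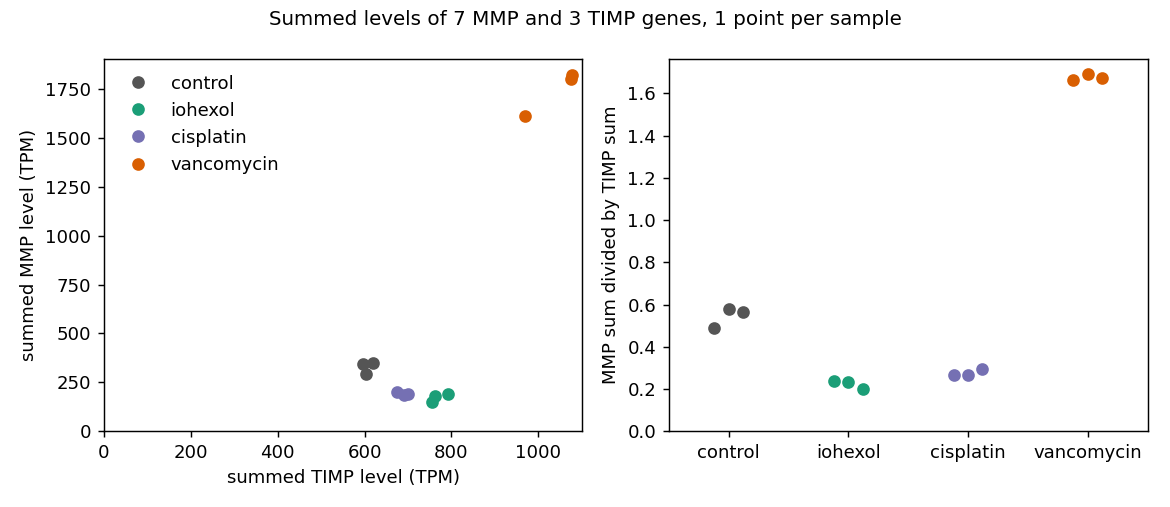
Left, summed level of the 7 MMP genes (vertical axis, TPM) against that of the 3 TIMP genes (horizontal axis, TPM) for each of the 12 samples; right, the MMP sum divided by the TIMP sum, with 1 point per sample in each group. The vancomycin samples lie apart at ratios from 1.66 to 1.69, the controls between 0.488 and 0.578, and the iohexol and cisplatin samples between 0.199 and 0.297.

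The make-up of the sums differed too. MMP14 held 59.1% of the MMP sum in the control, 67.6% with iohexol and 65.2% with cisplatin, and 37.3% with vancomycin, where MMP1 came to 35.0% from 18.4%. MMP7 held 21.4% in the control, 11.7% with iohexol, 25.0% with cisplatin and 25.3% with vancomycin. TIMP1 was the most abundant of the 10 genes per length in every group, and in the vancomycin group MMP14 (650 TPM), MMP1 (611 TPM) and MMP7 (441 TPM) stood above TIMP2 (246 TPM), which they did not in the control.

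MMP1, MMP3, MMP7 and MMP10 belong to a cluster of 9 MMP genes over 435 kb of chromosome 11, all on the minus strand. The order by position is MMP7, MMP20, MMP27, MMP8, MMP10, MMP1, MMP3, MMP12 and MMP13. Genes with hardly any reads lay between the others. MMP13, the collagenase at the far end, had 14, 9 and 5 counts in the control and 218, 237 and 280 counts with vancomycin (log2 fold change 4.58, SE 0.25), and like MMP3 and MMP10 it passed the filter only through the vancomycin group. MMP20, MMP27, MMP8 and MMP12 had at most 5 counts in any sample, MMP27 none. WTAPP1, a pseudogene that overlaps exons of MMP1 and MMP3, had at most 8 counts in a sample.

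**Figure D4:**
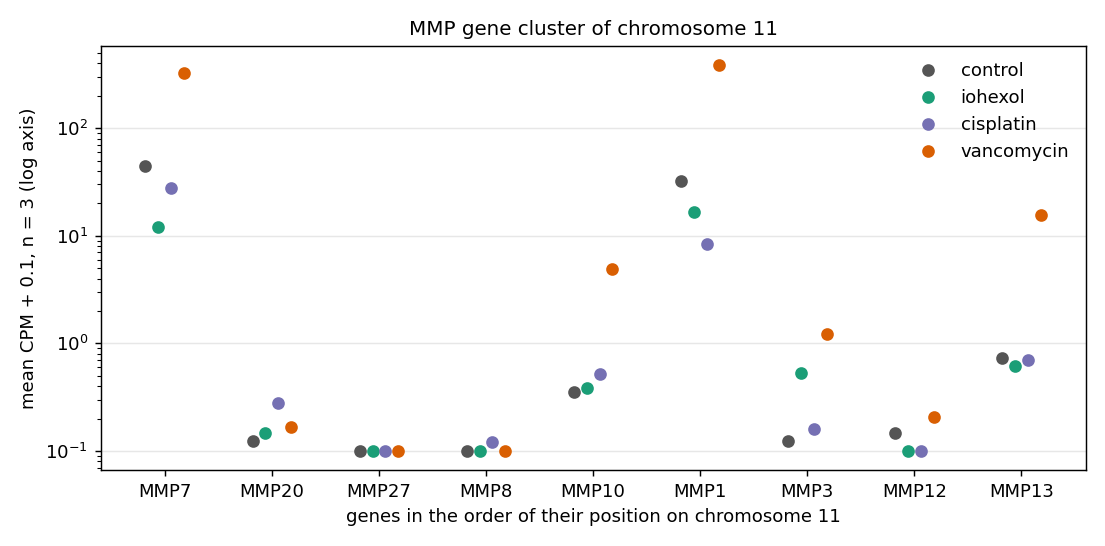
Mean level (CPM + 0.1, log axis, n = 3) of the 9 MMP genes of the chromosome 11 cluster in the order of their position, with 1 point per group. MMP7, MMP10, MMP1, MMP3 and MMP13 are highest with vancomycin, at 327, 4.78, 384, 1.13 and 15.6 CPM before 0.1 is added, and MMP20, MMP27, MMP8 and MMP12 have means of at most 0.181 CPM in any group.

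RefSeq promoters (build GRCh38.p14) were at hand for MMP7, MMP10, MMP14, TIMP1 and TIMP3. AP-1, the dimer of FOS and JUN proteins, is known to bind TGAGTCA or its reverse TGACTCA in several MMP promoters, so the 150 bases before each start were searched for these letters and for the TATA box (TATAAA or TTTATA) on both strands. MMP7 and MMP10, members of the same cluster, are shown with the matches in capitals, MMP7 at chr11:102530748-102530897 and MMP10 at chr11:102780629-102780778, both on the minus strand.
MMP7: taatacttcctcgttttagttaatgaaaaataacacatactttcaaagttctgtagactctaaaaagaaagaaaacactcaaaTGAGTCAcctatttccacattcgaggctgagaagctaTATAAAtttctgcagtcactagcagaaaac
MMP10: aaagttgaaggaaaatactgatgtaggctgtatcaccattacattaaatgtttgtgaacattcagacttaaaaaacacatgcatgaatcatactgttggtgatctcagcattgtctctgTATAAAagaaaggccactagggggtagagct

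MMP7 had an AP-1 match beginning 67 bases and a TATA match beginning 30 bases before the start. MMP10 had a TATA match 31 bases before the start and no AP-1 match of these letters, and MMP14, TIMP1 and TIMP3 had neither. Of 35116 promoters of the same length, 2.89% held the AP-1 letters, 6.71% the TATA letters and 0.285% both. A match describes the letters and is not a measured binding site. Variants of these letters were not searched for, so a promoter without a match can still hold one.

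The AP-1 and ETS factors, which are known regulators of MMP genes, were all 14 tested. With vancomycin 8 were called higher and 2 lower (ETV1 and ETS1, -0.81 and -0.45), beside 29.0% and 28.8% of all genes, with a median log2 fold change of 0.29. FOS rose from 1.96, 1.63 and 2.17 CPM to 32.7, 44.4 and 34.5 CPM (log2 fold change 4.23, SE 0.17, adjusted p = 1.19e-15), FOSB, whose gene overlaps ERCC1, by 3.46, JUNB by 1.02 and JUN by 0.97. With cisplatin 6 were higher and 5 lower, where 59.8% of all genes were called. FOSB (3.24) and FOS (2.96) rose there too, with FOS between 14.2 and 15.8 CPM, as did ETS2 (1.30) and ETV4 (1.28). With iohexol 3 were higher (FOSB, ELF3 and ETV5, at 0.72, 0.49 and 0.39) and 4 lower (FOSL1, JUNB, ETS1 and JUN, at -1.26, -1.20, -0.77 and -0.36), where 21.0% of all genes were called, and the median was -0.01.

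Of 16 activating proteases and their inhibitors, 9 could be tested with vancomycin, of which 6 were higher and 2 lower, beside 29.0% and 28.8% of all genes. Of the higher genes, KLK6 passed the filter only through the vancomycin group. The urokinase receptor PLAUR rose by 2.46 on the log2 scale (SE 0.10, adjusted p = 2.31e-15), the lysosomal protease CTSB by 1.66 and urokinase (PLAU) by 0.92, and the tissue activator PLAT fell (log2 fold change -1.08). With cisplatin 4 of 9 were higher and 5 lower, where 59.8% of all genes were called, and of the higher genes PCSK6 passed the filter only through the cisplatin group. PLAT rose 2.82-fold, and PLAU (log2 fold change -1.06) and SERPINE2 (-0.59) were among those lower. With iohexol 2 of 8 were higher, PLAT (1.23) and PLAU (0.50), and 2 lower, among them PLAUR (-1.16), where 21.0% of all genes were called. Urokinase was thus higher with iohexol and vancomycin and lower with cisplatin. The median log2 fold changes of the tested genes of this list were 0.85, -0.24 and 0.03 with vancomycin, cisplatin and iohexol.

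Among 14 other inhibitors, binding partners and inducers of MMPs, 13 were tested. With vancomycin 5 were higher and 5 lower, beside 29.0% and 28.8% of all genes. THBS1, a matricellular protein that binds MMP2 and MMP9, fell from 1200.2, 1191 and 1245 CPM to 63.6, 49.1 and 48.0 CPM (log2 fold change -4.54, SE 0.11, adjusted p = 1.6e-19). LCN2, which binds MMP9 and is itself a marker of tubular injury, rose by 3.28 (SE 0.17, adjusted p = 5.4e-14) and the inhibitor TFPI2 by 2.01, while the caveolin gene CAV1 fell (log2 fold change -1.19). With cisplatin 3 were higher and 8 lower, beside 29.2% and 30.6% of all genes, among the lower the testican SPOCK1 (-1.95), LRP1 (-1.52), which clears MMPs and TIMPs from the cell surface, the integrin ITGB3 (-1.39), a partner of MMP2, and THBS1 (-1.27). With iohexol 3 were higher and 6 lower, beside 11.2% and 9.77% of all genes, with LCN2 at 1.95, THBS1 at -1.41, CD44, which holds MMP9 at the surface, at -0.81 and TFPI2 at -0.80. The membrane inhibitor RECK was lower with each drug, at -0.52 (adjusted p = 0.02), -0.69 (adjusted p = 0.000188) and -0.63 (adjusted p = 0.000817) for iohexol, cisplatin and vancomycin. The medians of the list were -0.29, -0.66 and 0.09 in the same order.

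Of the 17 other members, the remaining MMPs and TIMP4, 5 could be tested with iohexol and with cisplatin and 6 with vancomycin. With vancomycin MMP11 (log2 fold change 2.17) and MMP16 (0.73) rose, and MMP24 fell (-0.50), beside 29.0% higher and 28.8% lower of all genes. MMP13 and MMP19 (3.31) were called higher too, but entered the test only through their counts in the vancomycin group, so these calls were tied to the filter. With iohexol MMP16 (1.49, SE 0.11, adjusted p = 2.29e-06) and MMP11 (1.41, SE 0.33, adjusted p = 0.01) rose and 0 were lower, beside 11.2% and 9.77% of all genes. With cisplatin MMP15 (-1.62), MMP16 (-1.51) and MMP24 (-0.25) fell and 0 rose, beside 30.6% and 29.2% of all genes. MMP16, a membrane-anchored MMP like MMP14, was thus higher with iohexol, where MMP14 was lower. The medians of the tested genes were 0.53 and -0.25 with iohexol and cisplatin.

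The related ADAM and ADAMTS proteases, of which 13 of 14 were tested, did not rise as a block. With vancomycin 7 were higher and 4 lower, beside 29.0% and 28.8% of all genes, with a median of 0.26, and the sheddases ADAM10 (-0.93) and ADAM9 (-0.82) fell while ADAM17 (0.50) and ADAMTS12 (0.42) rose. With cisplatin 0 were higher and 10 lower, beside 29.2% and 30.6% of all genes, among them ADAM12 (-2.64), ADAMTS9 (-1.31), ADAM10 (-1.20) and ADAM9 (-1.16). With iohexol 1 was higher, ADAMTS12 (0.97), and 5 lower, beside 11.2% and 9.77% of all genes, among them ADAM12 (-1.65), ADAM19 (-0.92) and ADAMTS1 (-0.58). The medians with cisplatin and iohexol were -0.86 and -0.28.

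Matrix proteins that MMPs are known to cut were measured in the same cells, and 14 of 20 were tested. With vancomycin 11 were higher and 2 lower, beside 29.0% and 28.8% of all genes. Tenascin C (TNC, 2.02 on the log2 scale), COL5A1 (1.92) and fibronectin (FN1, 1.10) were higher, and perlecan (HSPG2, -1.12) was among the lower. With cisplatin 2 were higher (COL1A1 and LAMB3, at 0.66 and 0.48) and 12 lower, beside 29.2% and 30.6% of all genes, with COL5A1 (-3.27), HSPG2 (-2.52) and FN1 (-1.64) among the lower. With iohexol 1 was higher, TNC (2.29-fold), and 8 lower, beside 11.2% and 9.77% of all genes, among them COL5A1 (log2 fold change -1.55) and NID1 (-0.81). The median log2 fold change of the tested substrates was 0.43, -1.53 and -0.50 with vancomycin, cisplatin and iohexol, beside -0.01, 0.01 and 0.01 for all genes tested.

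The genes with the most similar level over the 12 samples were listed for the member with the largest rise and fall of each drug. The likeness is Pearson's r of log2 CPM among 17073 genes and follows the 4 group means, so it is given as a description. TIMP2 was nearest to SCD (r = 0.997), MBP (0.993) and SH3KBP1 (0.992), and MMP7 to TXNRD1 (0.995), QSOX1 (0.993) and KIF21B (0.991). MMP1 was nearest to RPN1, SEC11A and SRSF4 (0.994, 0.992 and 0.992), TIMP1 to SELENOK, CHMP1B and HSPA1A (0.993, 0.990 and 0.990), and MMP3 to CDK5, SLC16A6 and AEBP1 (0.946, 0.939 and 0.934). With each other, MMP1, MMP2, MMP7, MMP9 and MMP14 had r between 0.908 and 0.985, and TIMP2 had r of 0.053 with TIMP1.

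The label of the cells was checked with markers. PAX8, KRT8 and GGT1 were abundant, whereas the uptake carrier SLC22A6 was at 0 in every sample and LRP2 at 0 in the control. Proximal tubule markers summed to 629, 875, 334 and 869 CPM in control, iohexol, cisplatin and vancomycin and epithelial markers to 1085, 857, 1390.0 and 1426 CPM, while endothelial markers were at 4.08 CPM or less. Of the epithelial markers, CDH1 was near the floor, with group means from 0.120 to 0.401 CPM, and CDH2 held 272 CPM of the control sum. Of the fibroblast markers 4 of 7 were above the floor of 3 counts in all control and in all vancomycin samples. Their summed level was 123, 110, 107 and 255 CPM in control, iohexol, cisplatin and vancomycin, and like the MMPs it was highest with vancomycin. Most of it was LUM (79.8 CPM in the control and 182 CPM with vancomycin), while COL1A2 and PDGFRA were at 0 in both of these groups. The iohexol sums (106 to 116 CPM) overlapped those of the control (115 to 129 CPM). LUM did not pass the test there (log2 fold change 0.01, adjusted p = 0.964), and DCN was lower (-0.96). With cisplatin LUM (-0.55) and DCN (-2.19) fell, but COL1A1 (0.66) rose. PDGFRB (1.15) was called higher too, but passed the filter only through the cisplatin group. Leukocyte markers summed to 15.4 and 16.7 CPM in control and vancomycin, 3 of 7 above the floor in each and most of it CSF1R, with MS4A1 and CD3E at 0. The part of these genes in the MMP levels was not tested. In bulk RNA, a change in the number of cells that make a transcript and a change in the amount per cell cannot be told apart.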

How the data were processed

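RNA of 12 HK-2 samples (3 in each of 4 groups) was selected on poly-T beads and made into libraries with an NEBNext kit. The authors deposited whole-number read counts per gene, without normalization. The labels' processing notes name CASAVA 1.8, fastp, HISAT2 2.0.5, featureCounts 1.5.0-p3 and DESeq2 1.20.0. The strand setting and annotation release are not given in the sources used here, and the members' positions and lengths equal those of GENCODE release 29 (GRCh38). Deposited gene lengths were used for TPM.

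Each drug was fitted with the 3 control samples in edgeR 4.0.16 under R 4.3.3 (TMM factors, filterByExpr with at least 10 counts and a total of 15, glmQLFit and glmQLFTest), and drugs were compared in a fit of all 12 samples. Adjustment followed Benjamini and Hochberg over every gene in a fit. A gene was called at an adjusted p below 0.05, and a DEG also changed by more than 1 on the log2 scale. SE was the log2 fold change divided by the square root of F. CPM divides by library size and by the TMM factor from the 12-sample fit. Replicates of a group differed by more than sampling noise, and the 3-count floor was 0.177 to 0.218 CPM.

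All members are named, and of each list up to 4 called genes with the smallest p per drug, besides genes that a count of 5 or fewer concerns, and some genes that this rule covers are not reported here. The members and lists were chosen with earlier results of these data known. On simulated counts for vancomycin against control, 95 of 98 tested genes changed 4-fold and 78 of 97 changed 2-fold were recovered, with 12 other genes called of 15769. In the 12-sample contrast of cisplatin and vancomycin these were 99 of 100 and 87 of 100, with 13 others of 16620. The simulation changed 100 genes at each size and used an assumed spread, whereas 57.9% and 64.7% of genes were called in the data. The recovery thus describes the simulated counts only. The alternatives were DESeq2 1.42.0, limma-voom (limma 3.58.1), other scaling and filters, a single fit of all samples, a replicate block, another gene length and leaving out each sample.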

Additional observations from a re-analysis of the deposited data

How the results depend on the processing

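Of 840 recomputed log2 fold changes and differences of the members, 820 kept their direction and their side of the threshold, 12 lost the call, 5 gained it and 3 changed sign. The sign changes were those of small differences between iohexol and cisplatin that were not called: MMP9 ranged from -0.064 (without iohexol replicate 2) to 0.34 when 1 sample was left out, with -0.019 without cisplatin replicate 2, and MMP14 ranged from -0.13 to 0.10. Leaving out 1 sample gave 1849 to 4544 genes called with iohexol, where 3283 were called with all samples. The 1849 were found without control replicate 2, and 2111 without iohexol replicate 2. The numbers 1 to 3 of the labels did not pair the samples: the mean correlation of deviations from the group means was -0.02 over the 18 pairs with the same number and 0.01 over the other 36, and 2 of the 12 samples were nearest to their own number. With these numbers as a replicate block 2096 genes were called with iohexol, and MMP3 was called lower with iohexol than with vancomycin (adjusted p = 0.0399). Where at least 10 counts were required in every sample, only 5 members could be tested in the comparisons of iohexol and of cisplatin with vancomycin, and 5 were called in each. With MMP14 left out, the MMP sum divided by the TIMP sum was 0.222, 0.0719, 0.0964 and 1.05 in control, iohexol, cisplatin and vancomycin. Without TIMP1 it was 1.41, 0.491, 1.44 and 7.13, so that the order of control and cisplatin changed, and with the longest transcript as length 0.477, 0.186, 0.254 and 1.47. With that length 6 of the 10 members kept their place in the order per length with iohexol. With library size in place of TMM factors the median change over the genes tested moved by 0.22 with cisplatin, by 0.21 for iohexol against vancomycin and by 0.33 for cisplatin against vancomycin, and iohexol against cisplatin moved by -0.13. The share of calls that were higher went from 53.4% to 67.5% with iohexol, from 48.9% to 68.1% with cisplatin, from 51.8% to 41.2% for iohexol against cisplatin, from 48.7% to 65.6% for iohexol against vancomycin and from 46.4% to 66.4% for cisplatin against vancomycin. The members kept their direction under this scaling, and the call of TIMP2 with vancomycin was lost. Genes at few counts, such as MMP2, MMP3, MMP9 and MMP10 outside the vancomycin group, are limited by depth.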
